A study of Mus musculus with 14 samples.

Results

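The step from DN1 to DN2 of early T cell development was examined on 8 of the 14 arrays of a mouse thymus study, 4 of DN1 cells and 4 of DN2 cells. They were chosen by their stage labels and set against each other within each of 4 genotypes. DN cells lack CD4 and CD8: DN1 cells carry CD44 without CD25, and DN2 cells carry both. The other arrays held 4 samples of DN3 cells, which carry CD25 without CD44, and 2 of leukemic cells, which were not used in any comparison here.

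All cells were labelled C57BL/6. Lethally irradiated wild-type recipients of the CD45.1+ kind had received total bone marrow, and every donor, controls included, carried Cre-ERT2, a recombinase that tamoxifen activates. Cre-ERT2 alone gave the WT group. Floxed Ezh2 gave Ezh2Δ/Δ, floxed p53 (the gene Trp53) gave p53Δ/Δ, and both gave Ezh2Δ/Δp53Δ/Δ, called the double-deleted group below. Deletion followed 4 weeks after transplantation and the thymus was sorted at 3 months, in every group. The source names and the design text give the thymus, while the protocol text for the sort names bone marrow. The labels name no promoter for the Cre, no age, no pooling of mice and no donor marker in the sorting gates, so cells left from the host were not measured. Each genotype and stage had 1 array. A stage is therefore represented by 4 arrays of different genotypes. The p-values measure the spread of the 12 non-leukemic arrays, DN3 included, around their genotype and stage levels. The labels do not tie these arrays to single mice.

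In the thymus, progenitors arriving from the blood pass through DN1, DN2 and DN3 while Notch signals from the stroma turn on T cell genes. DN1 is a mixed gate: beside early T cell progenitors it can hold NK cells, innate lymphoid cells, B cells and myeloid cells, because these also lack CD4 and CD8 and can carry CD44. CD25, the alpha chain of the IL-2 receptor, marks entry into DN2, where cells divide and close off other blood fates.

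Levels are log2 values of the signal over the 75th percentile of the array, so 0 is that percentile. Changes are DN2 minus DN1 on this log2 scale, averaged over the 4 genotype pairs, with the SE of limma and its Benjamini-Hochberg adjusted p. Lists of values run in the order WT, Ezh2Δ/Δ, p53Δ/Δ, double-deleted. The share of probes well above background ran from 40.3% to 50.4% over the arrays, and saturation was seen for none. The 6 arrays of slide 2, which held all Ezh2Δ/Δ and p53Δ/Δ samples, were dimmer, with 75th percentiles of 70.3 to 141 against 298 to 591 on the other 8. The WT, Ezh2Δ/Δ and p53Δ/Δ pairs each lay within 1 slide, while the double-deleted pair spanned 2 slides. The probe of Trp53 stood at DN1 at -0.01, 0.45, -3.70 and -4.03, and at DN2 at 0.87, 1.49, -5.57 and -2.59, low in both p53-deleted groups as labelled. The probe of Ezh2 stood at 2.23, 2.56, 3.41 and 3.66 at DN1 and at 4.0, 3.69, 3.14 and 4.14 at DN2. Whether these probes lie in the deleted part of their gene was not determined, so the level of Ezh2 was not used to check a label and that of Trp53 is given as measured. The T cell genes Cd3e, Cd3g and Thy1 were above background on all 8 arrays. Foxn1, Krt8 and Psmb11, which define thymic epithelium, were above background on none of them, and Krt5, another epithelial gene, was on 2 DN1 arrays and 1 DN2 array.

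Between DN1 and DN2, NK receptors and other genes of cytotoxic lymphocytes fell by the most, followed by Jchain and single genes of B cells and granulocytes. Il2ra, which encodes CD25, rose by the most, with Notch3 and the cell cycle inhibitor Cdkn1a among the other genes that rose. Of 27047 features tested, 374 were called at an adjusted p under 0.05 (1.38%). Of these, 47 were higher in DN2 (0.174% of the features) and 327 were lower (1.21%). Named genes made up 168 of the calls, 37 higher and 131 lower, and all 168 moved the same way in all 4 genotype pairs. With all arrays of 1 genotype left out in turn, a setting added after the data were seen, the count was 68 without WT, 126 without Ezh2Δ/Δ, 3053 without p53Δ/Δ and 206 without the double-deleted arrays. Without all p53Δ/Δ arrays 5.55% of features were called higher and 5.74% lower. Without the p53Δ/Δ DN1 array 1307 features were higher and 1126 lower, and without the p53Δ/Δ DN2 array 616 and 1178. Counts of list members in these fits, given below, are to be read beside these values. The median change over all features was 0.13. All 4 DN2 arrays lay above all 4 DN1 arrays for 252 features (0.932%) and below them for 480 (1.77%). Among the called genes this held for 14 of the 37 that rose and for 89 of the 131 that fell. Of the genes that fell, 35 were above background on no DN2 array, and of those that rose, 6 were above background on no DN1 array, so only a bound is given for such genes. In bulk RNA, fewer cells of a type in the gate and less RNA per cell cannot be told apart, here or in any comparison below.

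**Figure D1:**
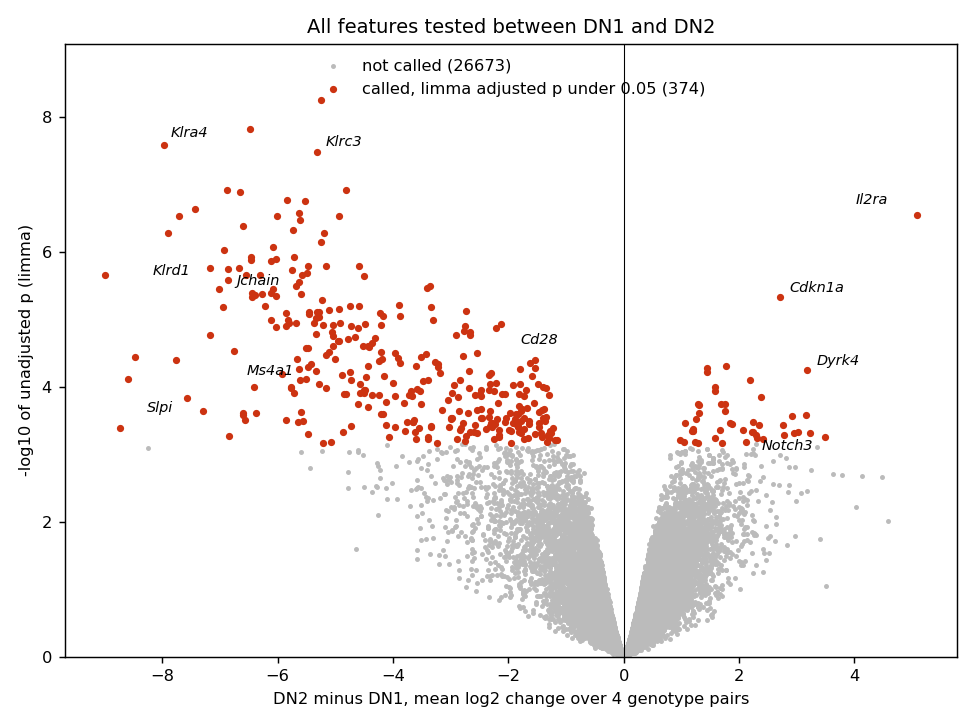
Mean log2 change from DN1 to DN2 over the 4 genotype pairs (x axis) against -log10 of limma's unadjusted p (y axis), 1 point per feature. The 374 called features are red, and 327 of them lie left of 0, where DN2 is lower.

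Il2ra was part of the sort, because CD25 defines the gate, so its rise checks the labels and is no independent result. Its level was 0.40, 2.12, 0.70 and 2.41 on the DN1 arrays and 6.89, 7.55, 5.19 and 6.35 on the DN2 arrays. Every DN2 array lay above every DN1 array, by a mean of 5.09 ± 0.37 (SE, 4 arrays per stage, adjusted p = 0.000532). Cd44, the other gate marker, was not called: it stood at 2.81, 3.57, 2.66 and 2.50 at DN1 and at 1.09, 1.88, 3.47 and 1.41 at DN2 (adjusted p = 0.413). Its p53Δ/Δ pair was the only one in which DN2 was the higher. Kit, the stem cell factor receptor that early thymocytes carry, stood at 1.42 to 2.21 at DN1 and at 2.21 to 2.97 at DN2 and was not called (adjusted p = 0.329).

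Notch3, a Notch receptor that is itself a Notch target, stood at -0.07, 1.17, -0.27 and 2.14 at DN1 and at 2.76, 4.31, 0.84 and 4.01 at DN2. The stages overlapped across genotypes, but within each genotype DN2 was the higher, and Notch3 rose by 2.24 ± 0.42 (adjusted p = 0.0384). It was called in 3 of 8 fits that left out 1 array, those without the p53Δ/Δ DN1, the p53Δ/Δ DN2 or the double-deleted DN1 array. The call was lost without any 1 of the WT or Ezh2Δ/Δ arrays of these stages or the double-deleted DN2 array. At DN3 it stood at 5.21, 5.54, 3.27 and 4.93. Notch1, the receptor that starts T cell fate, had all 4 DN2 arrays, at -0.68 to 0.98, above all 4 DN1 arrays, at -1.70 to -0.86, and was not called (1.38 ± 0.33, adjusted p = 0.0928). Of the 16 tested genes for Notch receptors, ligands and cofactors, 1 rose, Notch3, and 15 were not called, with a median of -0.03 beside 0.13 for all features. Of the 14 Notch target genes, 2 rose, Il2ra and Notch3, and none fell, with a median of 0.74. The rise of Il2ra follows from the sort, and Notch3 is the same gene as in the receptor list. At an unadjusted p under 0.05, 6 of these targets were higher and 0 lower, against 11.4% and 8.25% of all features. Without the p53Δ/Δ DN1 array 6 rose, without the p53Δ/Δ DN2 array 3 rose and 1 fell, and Il2ra alone was called in 5 of the other 6 fits without 1 array. Over all 27047 features, 1307 were called higher without the p53Δ/Δ DN1 array and 616 without the p53Δ/Δ DN2 array. Among the uncalled targets Ptcra, the alpha chain of the pre-TCR, had a change of 3.25 (adjusted p = 0.0777), with the DN2 arrays all above the DN1 arrays. Hes1, a repressor turned on by Notch, had 1.79 (adjusted p = 0.069). The median change of the Notch target list was 0.93, 1.05, 1.02 and 0.73 in the pairs. The difference of the step between p53-deleted and p53-intact genotypes, tested below, had a median of -0.56 over these targets. For 5 of the 14 its unadjusted p by limma was under 0.05, against 12.3% of all features, and none was called.

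Cdkn1a, which encodes the cell cycle inhibitor p21 and is a p53 target, stood at -0.49, 0.23, -1.61 and -0.01 at DN1 and at 2.83, 2.72, 1.60 and 1.81 at DN2. All DN2 arrays lay above all DN1 arrays, and Cdkn1a rose by 2.71 ± 0.28 (adjusted p = 0.00229). The rise was 3.32 and 2.49 in the pairs with intact p53 and 3.21 and 1.82 in the p53Δ/Δ and double-deleted pairs. It was the 1 called gene among 25 tested p53 targets and among 10 cell cycle inhibitors, whose list medians were -0.25 and -0.16. Plk2, a kinase that p53 can turn on, had the lowest change of the p53 targets, at -2.24, and was not called (adjusted p = 0.0724).

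**Figure D2:**
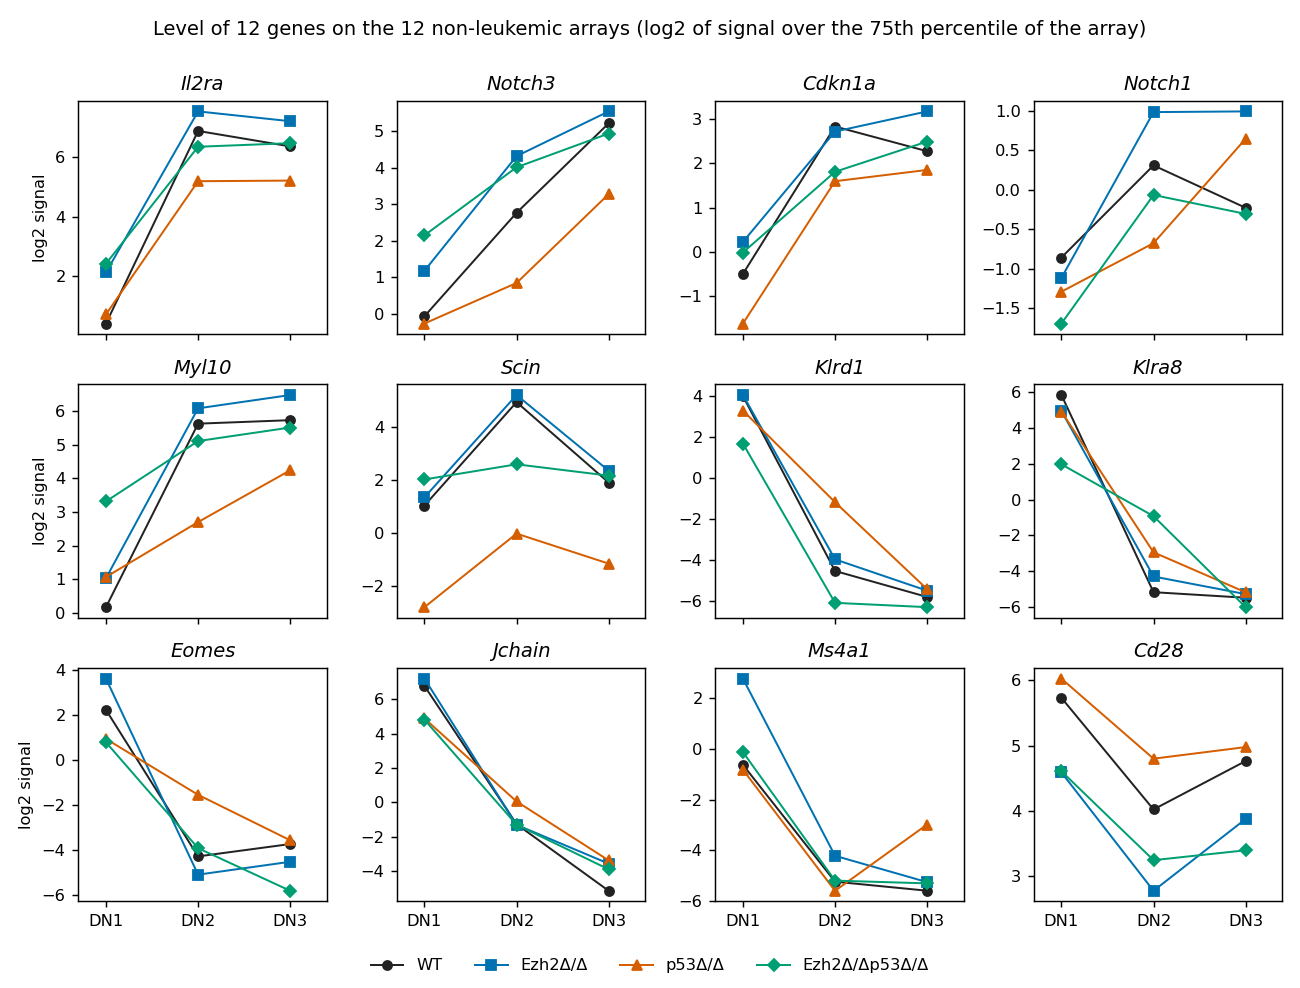
Level of 12 genes at DN1, DN2 and DN3 (x axis) on the 12 non-leukemic arrays, as log2 signal over the 75th percentile of the array (y axis, scaled per gene), 1 line per genotype. Il2ra, Cdkn1a and Notch1 have no overlap between DN1 and DN2, and the p53Δ/Δ line of Klrd1 reaches -1.17 at DN2 where the others lie at -3.95 or lower.

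The other genes that rose by the most were of mixed function, and most of these calls were not stable. Of 8 fits that left out 1 array, Dyrk4 was called in 6 and the others of the 15 largest rises in 2 to 4. Il2ra and Cdkn1a were called in all 8. Features called higher numbered 3 with the 8 DN1 and DN2 arrays alone. They numbered 2 without all WT, 2 without all Ezh2Δ/Δ, 17 without all double-deleted and 1501 without all p53Δ/Δ arrays. Myl10, a myosin light chain, stood at 0.16, 1.03, 1.06 and 3.32 at DN1 and at 5.64, 6.09, 2.70 and 5.12 at DN2, a rise of 3.49 ± 0.67 (adjusted p = 0.0435). Its stages overlapped, since the p53Δ/Δ DN2 array lay below the double-deleted DN1 array. Acot5, an acyl-CoA thioesterase, rose by 3.23 ± 0.60 and Dyrk4, a kinase, by 3.18 ± 0.44. Scin, an actin-severing protein, rose by 2.78 ± 0.52, but by 0.57 in the double-deleted pair against 3.90, 3.86 and 2.77 in the others. Epha2, an ephrin receptor, rose by 3.17 ± 0.54 and was above background on 1 DN1 array and 3 DN2 arrays. Mc1r, a melanocortin receptor, and Cldn2, a tight junction protein, were above background on no DN1 array. Mc1r was at least 4.84-fold and Cldn2 at least 1.67-fold higher at DN2. The remaining genes of the 15 largest rises were Smim5 (2.93), the vesicle protein gene Sytl4 (2.39), Vipr2, a receptor of vasoactive intestinal peptide (2.34), the mitochondrial aldehyde dehydrogenase gene Aldh1b1 (2.31), Cavin1, a coat protein of caveolae (2.30), and the transcript 8430426J06Rik (2.76). Hoxa7, a developmental transcription factor, rose by 1.68 ± 0.31 (adjusted p = 0.0373) and was the 1 called gene of 26 tested progenitor and stem cell genes, whose median was -0.00. Erg, a progenitor transcription factor, had a change of 2.15 and Flt3, a cytokine receptor of early progenitors, one of -2.83. Neither was called (adjusted p = 0.0832 and 0.0684), although all DN2 arrays of Flt3 lay below all DN1 arrays.

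Of the 28 gene lists, the one of NK and innate lymphoid genes had the most falls, 22 of the 131 named genes that fell. Among 41 tested genes of NK and other innate lymphoid cells there were 22 falls and no rise. All DN2 arrays lay below all DN1 arrays for 20 of the 41, against 1.77% of all features. The list median was -4.25 beside 0.13 for all features, and -3.57 with genes below background at their bound. The list was chosen with earlier results of these arrays known, so its count is no independent evidence. In the pairs the median was -5.69, -4.52, -2.49 and -3.73. The median level of the list on the DN1 arrays was 3.37, 3.11, 1.99 and 0.62, and on the DN2 arrays -3.86, -1.75, -0.75 and -3.94. The p53Δ/Δ DN2 array kept the highest level of the 4, and the double-deleted DN1 array had the lowest.

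Klrd1 encodes CD94, the partner chain of NKG2 receptors on NK cells. It stood at 3.99, 4.04, 3.28 and 1.67 on the DN1 arrays and at -4.52, -3.95, -1.17 and -6.07 on the DN2 arrays, above background on 1 of the latter. The stages did not overlap, and Klrd1 fell by 7.17 ± 0.65 (adjusted p = 0.00143). Where DN2 arrays lie below background, as 3 do here, the size of a fitted fall rests on those levels: with normexp correction that of Klrd1 was -4.59. Klrc1, which encodes its partner NKG2A, fell by 4.75 ± 0.67, and Klrc3 was at least 11.2-fold lower, with no DN2 array above background. Klrk1, which encodes the NK receptor NKG2D, fell by 4.25 ± 0.66.

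The Ly49 receptors, encoded by the Klra genes, bind MHC class I on other cells and mark mature NK cells. Klra8 (Ly49H) stood at 5.85, 4.96, 4.93 and 1.98 at DN1 and at -5.17, -4.29, -2.94 and -0.92 at DN2, and fell by 7.76 ± 1.04 (adjusted p = 0.00846). Its change was -11.02 in the WT pair and -2.90 in the double-deleted pair. Klra4 and Klra9 were above background on all DN1 arrays and on no DN2 array. Klra4 was at least 66.1-fold and Klra9 at least 131-fold lower. Klra7 fell by 7.72 ± 0.56, Klra16 by 7.02 ± 0.69 and Klra1 by 2.10 ± 0.33, and Klra5 was at least 14.8-fold lower. Klra genes are near-identical copies, so signal may be shared between their probes and the value of each member is uncertain. Klre1, another killer cell lectin-like receptor, fell by 6.47 ± 0.56, Klri2 by 4.78 ± 0.58, and Klrb1c, which encodes the NK marker NK1.1, by 6.40 ± 0.96. Klrb1a fell by 5.57 ± 0.98, with overlap between the stages. Klrb1 fell as well, by 4.44, but was in no list and was singled out after its value was seen. With it, 16 of 23 tested genes with Klr symbols fell. All 16 lie on chromosome 6, where the NK gene complex is. The location of the uncalled Klr genes was not compared, so the shared chromosome is no result about the falls.

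The NK transcription factors Eomes and Tbx21 fell. Eomes, needed for NK cell maturation, stood at 2.22, 3.61, 0.93 and 0.78 at DN1 and at -4.30, -5.11, -1.56 and -3.94 at DN2, a fall of 5.61 ± 0.82 (adjusted p = 0.0132). Tbx21 (T-bet) fell by 4.73 ± 0.69, with levels of 1.39 to 4.87 at DN1 and of -3.48 to 0.78 at DN2. Neither overlapped between stages. They were the 2 called genes of 9 E protein inhibitors and innate factors, whose median was -1.72. Neither was called without the WT DN1 or the Ezh2Δ/Δ DN2 array, and with the p53Δ/Δ DN1 or the p53Δ/Δ DN2 array left out 5 of the list fell. Rora and Id2, which innate lymphoid cells use, had changes of -2.15 and -1.72 and were not called (adjusted p = 0.212 and 0.218). In both genes the p53Δ/Δ pair alone was higher at DN2, by 1.93 and 0.45.

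Effector and signalling genes of NK cells also fell. Il2rb, the IL-2 and IL-15 receptor chain on which NK cells depend, stood at 5.17, 6.57, 5.40 and 3.42 at DN1 and at -2.83, 1.36, 4.08 and -2.87 at DN2. The p53Δ/Δ DN2 array lay within the DN1 range, and Il2rb fell by 5.21 ± 1.02 (adjusted p = 0.0498). Xcl1, a chemokine, fell by 4.85 ± 0.75, Fasl, a death ligand, by 3.63 ± 0.67, and Ctsw, a cathepsin of cytotoxic cells, by 3.22 ± 0.44. Gzma, a granzyme, and Cd244a, a receptor of NK cells, were among the list members with the smallest changes, at -1.39 and -0.55, and were not called (adjusted p = 0.143 and 0.558). The 4 NK markers Klrd1, Ncr1, Klrb1c and Eomes had a summed linear signal of 6.90 to 62.8 times the 75th percentile on the DN1 arrays and of 0.109 to 2.56 times on the DN2 arrays. All 4 were above background on every DN1 array and on 1 or 2 of 4 DN2 arrays. The part that the mix of sorted cells has in these falls was not tested. Called members numbered 7 without the WT arrays, 10 without Ezh2Δ/Δ, 31 without p53Δ/Δ and 16 without the double-deleted arrays. Leaving out 1 array gave between 9, without the Ezh2Δ/Δ DN2 array, and 30, without the p53Δ/Δ DN2 array. With normexp background correction the list median was -1.98, with 29 called.

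**Figure D3:**
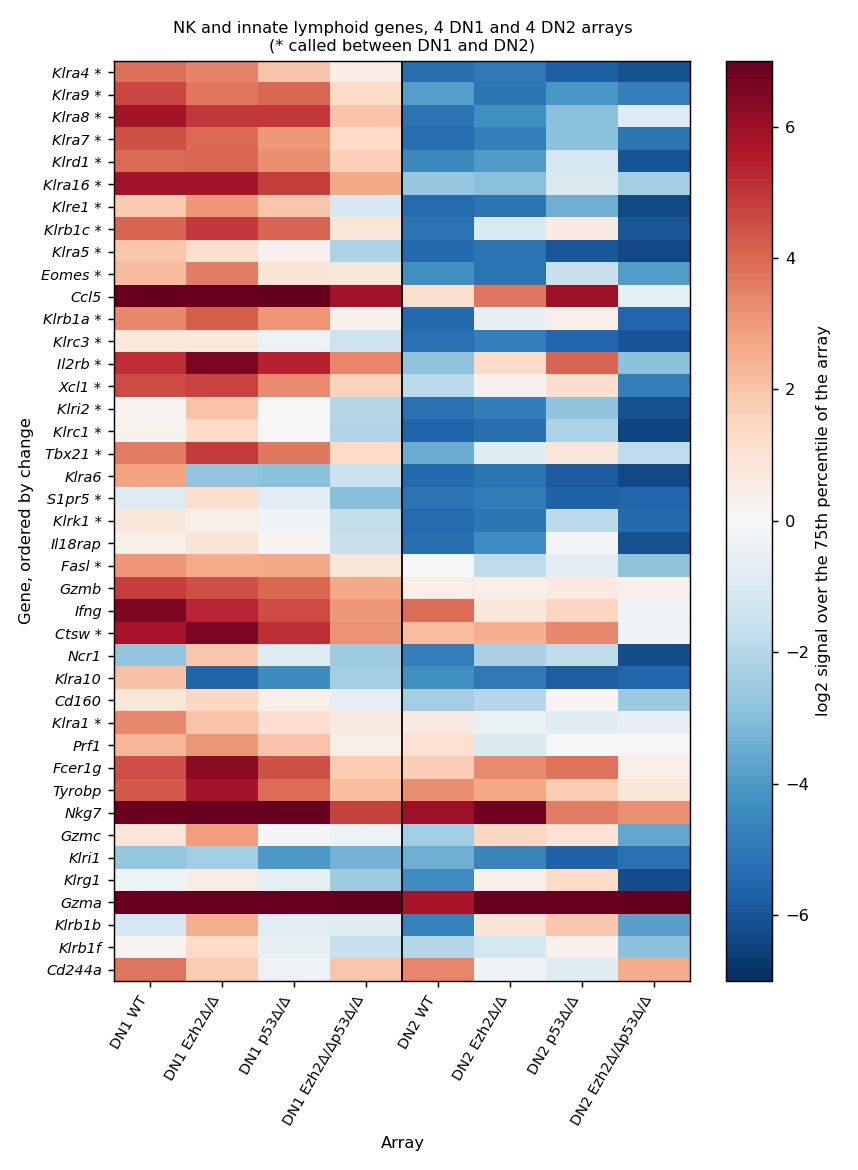
Level of the 41 tested NK and innate lymphoid genes (rows, ordered by change, asterisk where called) on the 4 DN1 and 4 DN2 arrays (columns), as log2 signal over the 75th percentile of the array, with colour limits at -7 and 7. The DN2 side is blue for most Klr genes and palest on the p53Δ/Δ array, whose list median was -0.75.

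Because the NK genes fell together, the 250 bases before their annotated starts were searched for 5 motifs on both strands. Some windows with and without a match, chosen by no set rule, are printed. The sequences are RefSeq's, build GRCm38.p6, and 17 of the 22 NK list genes that fell had one. The motifs were TGTGGT of the RUNX factors, TGGGAA of the Notch partner RBPJ, GGTGTGA of T-box factors, AGATAA of GATA factors and GGCGGGAA of E2F factors, and no motif contains another. TGTGGT was in 8 of the 17 windows (47.1%), against 19 of 100 windows of all genes that fell (19%), 2 of 33 of genes that rose (6.06%) and 3825 of 27025 of all promoters (14.2%). RBPJ letters were in 3 of the 17 (17.6%), in 21.2% of genes that rose and in 21.5% of all promoters. T-box letters were in 1 of the 17 (5.88%) and in 3.31% of all, GATA letters in 1 (5.88%) and in 10.2% of all, and E2F letters in 0 and in 1.91% of all. The Klr genes are copies of one another, so their windows are not independent. TGTGGT was picked for display after these counts were seen, and a match is a description of letters, not of a site. It stands in capitals, on either strand, in Klrb1c, Klrk1 and Klrc3, and is missing from Klra4 and from Il2ra, which rose. Only these exact letters were searched, so a window without them may still hold a variant of the motif. Klrd1 has no window in the table. The windows lie at chr6:128788642-128788891 (Klrb1c), chr6:129623865-129624114 (Klrk1), chr6:129643289-129643538 (Klrc3) and chr6:130067272-130067521 (Klra4) on the minus strand and at chr2:11642542-11642791 (Il2ra) on the plus strand, each printed 5′ to 3′ on its gene's strand.
Klrb1c: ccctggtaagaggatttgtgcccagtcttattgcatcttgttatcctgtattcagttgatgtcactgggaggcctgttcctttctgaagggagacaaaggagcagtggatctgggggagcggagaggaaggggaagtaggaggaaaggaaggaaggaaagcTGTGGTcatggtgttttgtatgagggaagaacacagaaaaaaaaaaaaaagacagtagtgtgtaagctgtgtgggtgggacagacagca
Klrk1: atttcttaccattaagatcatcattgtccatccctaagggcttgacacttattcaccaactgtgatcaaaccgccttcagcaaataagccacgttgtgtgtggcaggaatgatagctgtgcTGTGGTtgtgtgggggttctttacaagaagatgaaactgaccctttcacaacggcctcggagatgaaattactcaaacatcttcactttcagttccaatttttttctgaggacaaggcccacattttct
Klrc3: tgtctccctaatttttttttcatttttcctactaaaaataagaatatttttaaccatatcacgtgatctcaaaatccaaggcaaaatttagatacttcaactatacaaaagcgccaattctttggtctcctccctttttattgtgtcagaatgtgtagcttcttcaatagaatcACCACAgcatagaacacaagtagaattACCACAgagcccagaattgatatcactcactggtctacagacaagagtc
Klra4: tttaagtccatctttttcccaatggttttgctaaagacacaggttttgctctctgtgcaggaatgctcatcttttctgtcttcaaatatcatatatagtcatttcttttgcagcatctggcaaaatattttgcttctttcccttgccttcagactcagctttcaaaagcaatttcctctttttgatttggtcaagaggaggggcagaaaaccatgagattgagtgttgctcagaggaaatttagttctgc
Il2ra: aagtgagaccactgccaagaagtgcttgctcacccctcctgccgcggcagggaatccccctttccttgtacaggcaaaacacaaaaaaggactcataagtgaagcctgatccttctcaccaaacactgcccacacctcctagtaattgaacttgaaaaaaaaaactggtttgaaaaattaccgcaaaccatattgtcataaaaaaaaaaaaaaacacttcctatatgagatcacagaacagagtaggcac
The match begins 89 bases before the start in Klrb1c and 129 bases before it in Klrk1, and Klrc3 has 2 matches, at 76 and 49 bases.

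Single genes of other blood lineages fell too. Jchain, the joining chain of secreted antibodies, stood at 6.77, 7.19, 4.88 and 4.81 at DN1 and at -1.27, -1.30, 0.05 and -1.30 at DN2. Every DN2 array lay far below every DN1 array, a fall of 6.87 ± 0.62 (adjusted p = 0.00143). Mzb1, the other plasma cell marker, did not move like Jchain. It stood at 2.19, 3.76, 1.56 and 0.96 at DN1 and at 1.15, 3.61, -0.78 and 1.57 at DN2. Mzb1 was above background on every array of both stages and was higher at DN2 in the double-deleted pair. The B cell surface gene Ms4a1 (CD20) was above background on all DN1 arrays and on no DN2 array, and was at least 14.7-fold lower. It was highest on the Ezh2Δ/Δ DN1 array, at 2.75. Fcmr, an IgM receptor, fell by 4.07 ± 0.78. Jchain, Ms4a1 and Fcmr were among 4 called genes of 20 tested B-lineage genes, none of which rose, and the list median was -1.24. With 1 array left out they numbered 2, without the Ezh2Δ/Δ DN2 array, to 7, without the p53Δ/Δ DN1 array. Of 4 B cell markers, which include Cd79a, Ms4a1 and Pax5, 3 were detected on DN1 arrays and 0 on DN2 arrays. Their summed signal was 0.895 to 9.75 times the 75th percentile at DN1 and 0.123 to 0.222 times at DN2. Their part in the falls was not tested.

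Of 26 tested myeloid genes, 4 fell and none rose, with a median of -0.85. None of the 4 was called without the WT DN1, the WT DN2 or the Ezh2Δ/Δ DN2 array. Slpi, a protease inhibitor of neutrophils and mucosa, stood at 4.36, 8.14, 3.53 and 2.79 at DN1 and at -5.48, -3.61, -1.32 and -1.08 at DN2, a fall of 7.58 ± 1.20 (adjusted p = 0.0182). Ms4a3 and Prtn3, genes of granulocyte precursors, were above background on 3 DN1 arrays and no DN2 array. Ms4a3 was at least 6.49-fold and Prtn3 at least 4.28-fold lower. Ly6c1, carried by monocytes and some lymphocytes, fell by 2.48 ± 0.39. Prg2, an eosinophil granule protein outside the list, was at least 17.2-fold lower. Mpo, the peroxidase of granulocyte precursors, had a change of -3.14 and was not called (adjusted p = 0.204), with levels of 3.95, 3.06, -3.73 and 1.20 left at DN2. The 4 markers of granulocyte precursors summed to 3.05 to 72 times the 75th percentile at DN1 and to 0.716 to 18.0 times at DN2, and their part was not tested. In the lists for dendritic cells and MHC class II (21 tested), erythroid, megakaryocyte and mast cells (15) and thymic stroma and endothelium (12), limma called 0 genes. At an unadjusted p under 0.05 these lists had 3 higher and 5 lower, 0 higher and 2 lower, and 2 higher and 2 lower. Over all features 11.4% were higher and 8.25% lower at that threshold.

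Several genes of mature T cells were lower in DN2. Of 24 tested coreceptors and proximal TCR signalling genes, 6 fell and none rose, with a median of -0.97. Cd28, the costimulatory receptor, stood at 5.73, 4.59, 6.03 and 4.60 at DN1 and at 4.02, 2.77, 4.80 and 3.24 at DN2. The stages overlapped across genotypes, but every pair fell by a similar amount, 1.71, 1.82, 1.23 and 1.37, and the fall of 1.53 ± 0.20 was called (adjusted p = 0.00846). Cd5 and Cd6, which dampen TCR signals, fell by 1.81 ± 0.28 and 1.80 ± 0.27. Txk, a kinase of the Tec family, fell by 3.40 ± 0.65, but by 0.24 in the p53Δ/Δ pair against 5.05, 4.01 and 4.30 in the others. Prkcq, a kinase downstream of the TCR, fell by 1.64 ± 0.29 and Cd8b1, the beta chain of CD8, by 1.66 ± 0.32. Without the p53Δ/Δ arrays 13 of the 24 fell, while without the WT, the Ezh2Δ/Δ or the double-deleted arrays limma called 0 of them. With any 1 array of these 3 genotypes left out, 0 or 1 was called. Itm2a and Cd8b1 were the 2 called genes of 21 tested double-positive thymocyte genes, and Itm2a, a membrane protein of activated and developing T cells, fell by 1.82 ± 0.31.

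The genes that build the pre-TCR were not called over the 4 pairs. Of 10 CD3, pre-TCR and recombination genes limma called 0, with a median of 0.92. At an unadjusted p under 0.05, 4 were higher and 3 lower, against 11.4% and 8.25% of all features. Without the p53Δ/Δ arrays 4 rose and 2 fell. Rag2, a subunit of the recombinase, had a change of 2.30 (adjusted p = 0.107), and its DN2 arrays lay above its DN1 arrays. Dntt, which adds bases at recombination joints, had 1.84 (adjusted p = 0.208) and Cd3d had -1.27 (adjusted p = 0.172). Rag2 changed by 2.92, 4.30, 0.61 and 1.38 in the pairs and Ptcra by 3.63, 5.67, 1.64 and 2.06, so the p53Δ/Δ pair was lowest for both. The transcription factors of T cell commitment were high at both stages. Tcf7 stood at 3.82 to 4.86 at DN1 and at 4.33 to 4.68 at DN2 (adjusted p = 0.688), and Bcl11b at 4.0 to 5.48 and 4.70 to 5.71 (adjusted p = 0.336). Gata3 stood at 5.14, 4.90, 4.49 and 5.04 at DN1 and at 4.06, 4.04, 5.06 and 3.96 at DN2 (adjusted p = 0.277), with the p53Δ/Δ pair alone higher at DN2. Of the 24 T-lineage transcription factors limma called 0, with a median of -0.31. At an unadjusted p under 0.05, 1 was higher and 8 were lower, beside the same shares of all features. Without the p53Δ/Δ arrays 6 of them fell.

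Chemokine receptors of circulating lymphocytes were among the genes that fell. Cxcr3, which guides NK and effector T cells, stood at 4.62, 6.20, 5.14 and 2.61 at DN1 and at -3.99, 0.38, 2.60 and -3.82 at DN2, a fall of 5.85 ± 1.03 (adjusted p = 0.0316). The stages met at 2.61 and 2.60 without overlap. S1pr5, which lets NK cells leave tissues, was at least 6.57-fold lower. They were among 3 called genes of 22 tested homing and chemokine receptor genes, whose median was -2.04. The pair medians were -3.80, -2.73, 0.65 and -2.52, and 14 genes fell without the p53Δ/Δ arrays, while 0 were called without the Ezh2Δ/Δ DN2 array. Cxcr6, Cx3cr1 and Ccr4 had changes of -3.51, -2.93 and -2.91 and were not called. In the cytokine list of 29 genes, Il2ra rose and Il2rb fell, and Socs2, a feedback inhibitor of cytokine signals, had 1.72 (adjusted p = 0.102).

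A group of interferon-induced genes fell. Ifit3 stood at 1.72, 3.30, 3.25 and 0.88 at DN1 and at -3.47, 0.37, 1.04 and -2.48 at DN2, a fall of 3.43 ± 0.45 (adjusted p = 0.00746), although its near-identical copy Ifit3b may share its signal. Oas3, an antiviral enzyme, fell by 1.62 ± 0.22, Ifit1 by 1.47 ± 0.26 and Irf7, a transcription factor of the interferon response, by 1.46 ± 0.27. These were the 4 called genes of 28 tested, none of which rose. With 1 array left out, between 1, without the WT DN2 array, and 7, without the p53Δ/Δ DN1 array, were called lower. The list median was -0.48, at -0.43, -0.50, -0.46 and -0.83 in the pairs, so here the p53Δ/Δ pair did not stand apart.

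Growth genes were not called over the 4 pairs. Of 48 tested cell cycle genes limma called 0, yet 46 had a mean change above 0, with a median of 1.15. At an unadjusted p under 0.05, 36 were higher and 2 lower, against 11.4% and 8.25% of all features. Cdc6, which loads the replicative helicase, had a change of 2.03 (adjusted p = 0.162), at 4.55, 2.62, 0.06 and 0.89 in the pairs. Tk1, thymidine kinase, had 1.67, at 3.02, 2.61, -0.25 and 1.32. Ccnd1, a D cyclin, had the lowest change, at -1.65. The median level of the list at DN1 was 1.76, 2.37, 3.68 and 3.52, and at DN2 3.91, 4.13, 3.38 and 4.36. At DN1 both p53-deleted groups lay above the others, at 3.68 and 3.52 against 1.76 and 2.37. The DN2 medians ran from 3.38, in p53Δ/Δ, to 4.36, in the double-deleted group. The list medians in the pairs were 2.26, 1.71, -0.27 and 0.89.

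In other growth lists the p53Δ/Δ pair also had the lowest median. Of 30 MYC and ribosome biogenesis genes limma called 0, with a median of 0.60, at 0.84, 0.95, -0.11 and 0.72 in the pairs, and 14 were higher and 0 lower at an unadjusted p under 0.05. Of 20 cholesterol synthesis genes limma called 0, with a median of 0.75, at 1.24, 1.01, -0.08 and 0.46, and 11 were higher and 0 lower at an unadjusted p under 0.05. Without the p53Δ/Δ arrays 25 cell cycle genes rose and 1 fell, 10 MYC and ribosome genes rose, and 9 cholesterol genes rose. That setting called 3053 features (11.3%), 1501 higher (5.55%) and 1552 lower (5.74%). The lists for glycolysis (19 genes), DNA methylation (9), PRC2 and PRC1 (20), BCL2 family (15) and immediate-early and heat-shock genes (27) had 0 calls by limma in all, with medians of 0.18, 0.50, 0.17, -0.22 and -0.55. At an unadjusted p under 0.05 they had 4, 4, 3, 0 and 1 genes higher and 2, 1, 2, 2 and 4 lower.

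**Figure D4:**
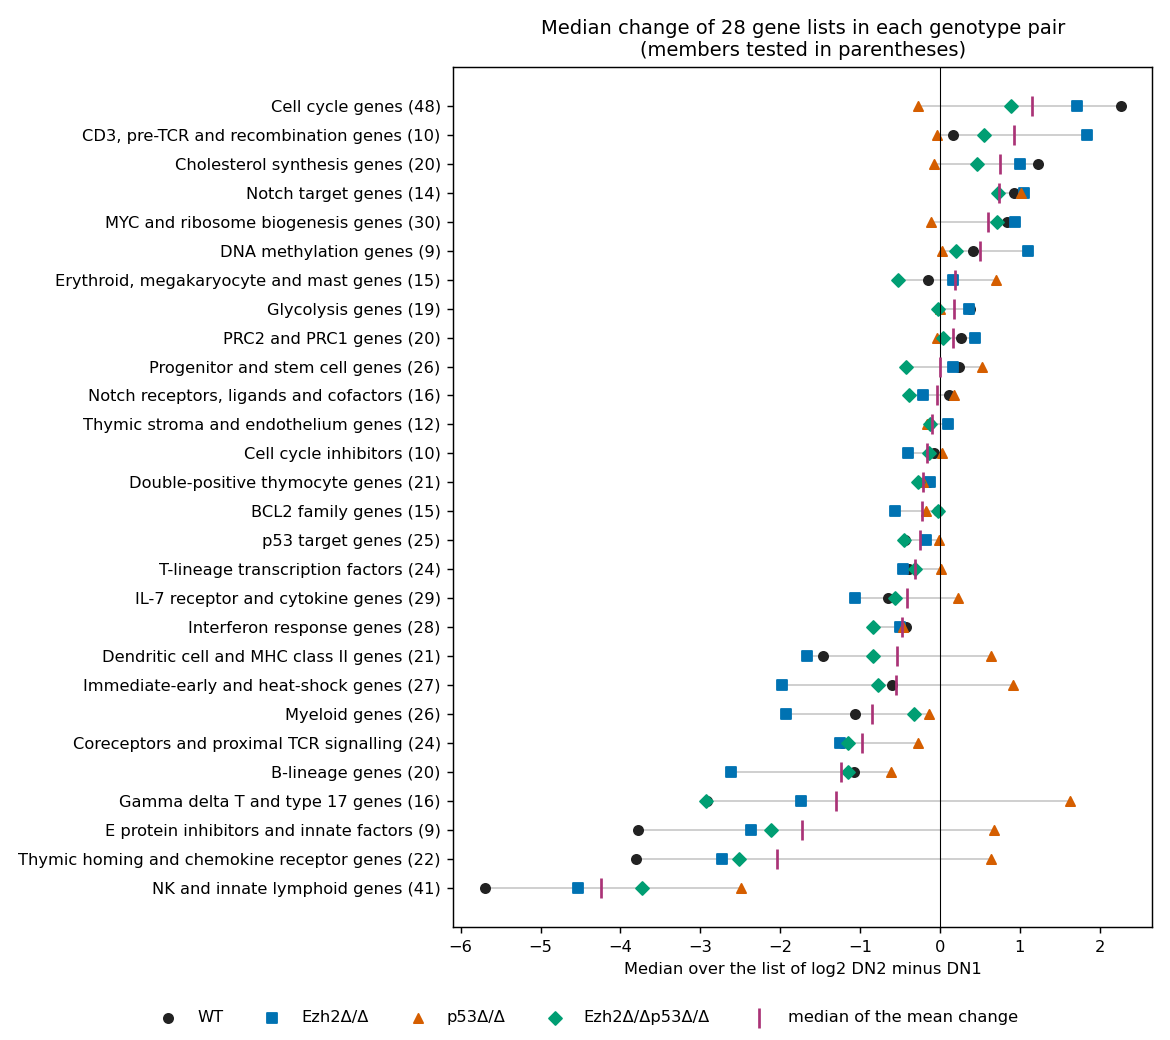
Median log2 change from DN1 to DN2 (x axis) of each of 28 gene lists (y axis, number of tested members in parentheses), 1 symbol per genotype pair, with a bar at the median of the mean change. The p53Δ/Δ triangle lies nearest to 0 or across it in most lists with large medians, such as cell cycle genes (-0.27) and gamma delta T and type 17 genes (1.63).

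The p53Δ/Δ pair moved least of the 4. In it 12.8% of features changed by over 1 log2 unit in either direction, against 27.6% in WT, 31.1% in Ezh2Δ/Δ and 16.6% in the double-deleted pair. The SD of the change over features was 1.29, 1.32, 0.81 and 0.98. Of the 374 called features, 221 had their smallest change in the p53Δ/Δ pair, 114 in the double-deleted, 22 in the WT and 17 in the Ezh2Δ/Δ pair. Features below background on both arrays of a pair have changes of uncertain size. They made up 11.4%, 21.4%, 17.5% and 8.54% of the features and had median changes of 0.26, 0.58, -0.02 and 0.01. Among the remaining features the shares changed by over 1 log2 unit were 28%, 32.1%, 11% and 16.1%.

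**Figure D5:**
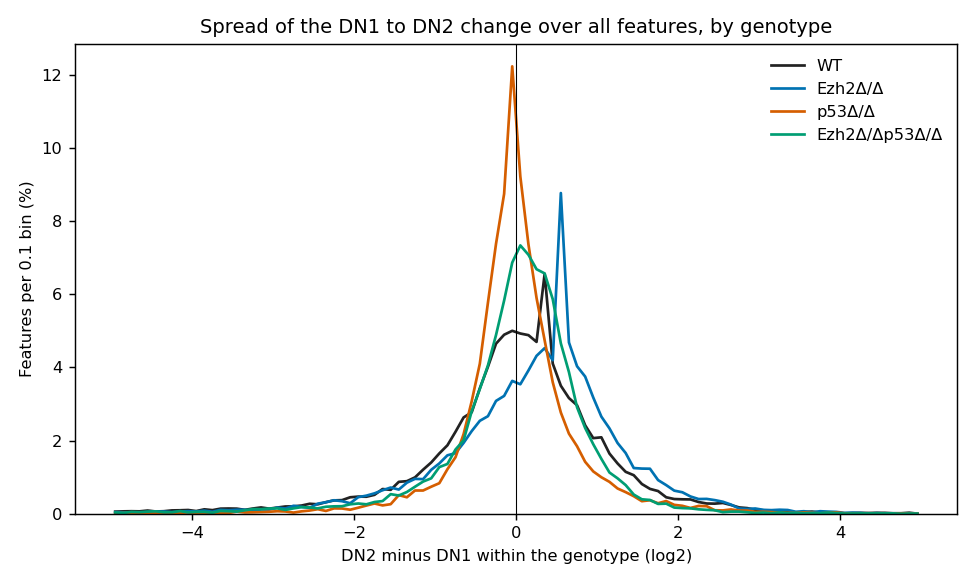
Share of the 27047 features (y axis, percent per bin of 0.1) at each log2 change from DN1 to DN2 (x axis), 1 line per genotype pair. The p53Δ/Δ line is the narrowest, with an SD of 0.81, and the narrow peaks of the WT and Ezh2Δ/Δ lines lie in the range of features below background on both arrays, whose medians were 0.26 and 0.58.

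In several lists the p53Δ/Δ pair went the other way. The 16 tested gamma delta T and type 17 genes had pair medians of -2.92, -1.74, 1.63 and -2.92. Their median level at DN1 was 2.61, 3.30, 0.74 and 2.13, and at DN2 -0.09, 0.94, 2.48 and -0.63, so the p53Δ/Δ arrays were lowest at DN1 and highest at DN2. Il17a, a cytokine of type 17 lymphocytes, changed by -4.71, -3.65, 4.72 and -5.69, and Maf, a transcription factor of these cells, by -4.55, -3.57, 1.96 and -3.29. Over the 4 pairs, Cd28 alone of this list was called, and 12 of 16 fell without the p53Δ/Δ arrays. Sox13, the 1 gamma delta marker with a named probe, was above background on all 8 arrays, at -0.07 to 3.16 at DN1 and at 0.44 to 1.53 at DN2, and its part in the list's values was not tested. Genes of dendritic cells and MHC class II had pair medians of -1.47, -1.66, 0.64 and -0.83, and immediate-early and heat-shock genes -0.60, -1.97, 0.91 and -0.77.

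The difference itself was tested by p53 status, with p53Δ/Δ and double-deleted cells on one side and WT and Ezh2Δ/Δ cells on the other. Of 27047 features, limma called 1 (0.0037%), while 3327 (12.3%) had an unadjusted p under 0.05. The called feature was a probe with no gene name here, A_55_P1967286. It stood at 1.39, 2.32, -5.82 and -6.35 at DN1 and at -5.47, -5.11, -5.87 and -6.34 at DN2, above background on 2 DN1 arrays and no DN2 array. The call (adjusted p = 0.0139) thus rests on levels below background on all but 2 arrays, its size was not measured, and it was made in 0 of 8 fits that left out 1 array. For the cell cycle list the median of this difference was -1.67, and 29 of 48 genes had an unadjusted p under 0.05. None of them was called. By Ezh2 status limma called 0 features (0%), with 805 at an unadjusted p under 0.05. A difference of the p53Δ/Δ pair from the other 3 has 1 pair on one side and was not tested.

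The DN3 arrays place these genes after the step, with the caution that the comparison of DN3 with DN2 uses the same DN2 arrays. Il2ra stood at 6.37, 7.22, 5.21 and 6.47 at DN3, within its DN2 range of 5.19 to 7.55. Cdkn1a stood at 2.27, 3.17, 1.85 and 2.49, above each of its DN1 levels. Klrd1 was above background on no DN3 array, and its p53Δ/Δ level went from 3.28 at DN1 through -1.17 at DN2 to -5.41. The median level of the NK list at DN3 was -4.34, -4.77, -5.14 and -4.90, with the p53Δ/Δ array lowest where it had been highest at DN2. Jchain, at -1.30 to 0.05 at DN2, stood at -5.14 to -3.37 at DN3. Scin and Cldn2 had DN3 minus DN2 changes of -1.86 and -2.04, which were not called (adjusted p = 0.471 and 0.44).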

How the data were processed

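RNA of sorted thymocytes, 20 ng per array, was labelled with Cy3 and hybridised to 1-colour Agilent mouse arrays, per the labels. The deposited scanner files hold spot intensity that Feature Extraction 10.7.1.1 had background-subtracted and spatially detrended, per the file headers. The deposited value table, intensity that the authors scaled per array by a method not given in the sources used here, served as an alternative.

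Control spots and 15 probes with a spot marked as an outlier were left out, spots of a probe were averaged, and log2 intensity was set against the 75th percentile of each array. The filter kept 31484 probes whose signal stood well above background on 2 or more of 14 arrays, and the brightest probe stood for a gene, giving 27047 features, 14242 of them named. Of 55681 probes, 27656 had 1 gene symbol through RefSeq accessions, 0 had several and 28025 had none. Levels with no array of a stage above background were treated as bounds: the bright stage's mean was set against the lowest signal well above background on each array of the other stage.

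The step was fitted with limma 3.58.1 in R 4.3.3 (lmFit, eBayes, Benjamini-Hochberg, adjusted p under 0.05) with genotype and stage as terms over 12 arrays. The DN3 arrays shared in the estimate of the spread, with 6 residual degrees of freedom. The pairing comes from the genotype in the labels. Differences by p53 or Ezh2 status were interaction terms, with 4 residual degrees of freedom. The code was tested on simulated data. Alternatives covered background correction, scaling, the filter, the probe rule, slides, the value table and left-out arrays. The normexp correction, with an offset of 50, used the median spot signal, not the mean signal that had been planned.

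Genes were named by rule: the 15 largest rises and the 15 largest falls among called genes that moved one way in all pairs, every called member of a gene list, 11 genes of the sort, the deletions and T cell commitment, and up to 4 further members at each end of a list. Members, lists and rules were chosen with earlier results of these data known, and the motif shown in promoters after its counts were seen. The arrays' number limits the precision. A few genes that the rule would name are not reported here.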

Additional observations from a re-analysis of the deposited data

Results flagged for a closer look

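An array stood apart from the other 3 of its stage in 12 of 222 groups of 4 values, a share close to the 1 in 20 that chance gives. In 7 of the 12 it was the p53Δ/Δ array or pair, but groups share arrays and genes, so they are not independent. Dyrk4 was low on the p53Δ/Δ DN1 array, at -5.96. Jchain (0.055), Klrk1 (-1.82) and Gata3 (5.06) were high on the p53Δ/Δ DN2 array. The median level of coreceptor and TCR signalling genes was high there too, at 3.81, and their median change in that pair was the smallest, at -0.28. The median level of progenitor genes was low on the p53Δ/Δ DN1 array, at -2.92. On the Ezh2Δ/Δ arrays, Fcmr (3.56) and the median of dendritic cell genes (3.45) were high at DN1, Bcl11b was high at DN2 (5.71), and the stroma list had the only pair median above 0, at 0.11. Immediate-early and heat-shock genes had their highest median level, 4.90, on the WT DN1 array.

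The unnamed probe A_55_P1967286 differed in its step by p53 status. The fitted difference of 7.13 on the log2 scale is no measured size, since the probe was above background on 2 DN1 arrays and no DN2 array, and it was called in 0 of 8 fits without 1 array.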

How the results depend on the processing

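The step's count of 374 called features depended most on which arrays were used. It was 132 with the 8 DN1 and DN2 arrays alone, 177 with no replicate block (genotype, the pairing, left out) and 5 within slide 2 alone. Without all arrays of 1 genotype, added after seeing the data, it was 68 (WT), 126 (Ezh2Δ/Δ), 206 (double-deleted) and 3053 (p53Δ/Δ). Without single arrays it ranged from 141 (Ezh2Δ/Δ DN2) to 2433 (p53Δ/Δ DN1), with 1794 without the p53Δ/Δ DN2 array. Other scalings, filters, probe rules, the value table, the slide block and leaving out slide 2 gave 262 to 545. The median change of all features moved from 0.13 to 0.00 with scaling on probes detected on all arrays. The difference by p53 status, 1 feature, became 0 with the stricter filter and with the slide block, 11 with normexp, and 0 to 0 without single arrays. By Ezh2 status the count was 0 in every setting run, with 542 to 2316 features at an unadjusted p under 0.05. Of 61 called genes of the naming rule, 0 reversed under the 24 alternatives, 15 were called in all 8 fits without 1 array, and 1 (Klra4) was called under every alternative. The uncalled Trp53 turned to -0.21 with the slide block and without the double-deleted DN1 array, and to -0.42 within slide 2. That DN1 array was alone on its slide, so the slide block and leaving it out are the same fit, not separate alternatives. The uncalled Tcf7 turned to -0.012 without the WT DN1 array and to -0.033 within slide 2. Without the p53Δ/Δ DN1 array they reached 1.12 and 0.34, the highest without 1 array. The cause was not tested. Signal over background limits what can be read from dim genes.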
